A study of Canis lupus familiaris with 10 samples.

Results

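The genes described here make cholesterol and fatty acids under the control of the sterol regulatory element-binding proteins (SREBPs), together with the genes that control SREBPs and a few that carry or export sterol. The list held 34 genes: 18 sterol enzymes, 5 SREBP regulators, 7 fatty acid enzymes and 4 genes of sterol transport and efflux. A gene counted as measured where a probe set carried its symbol and no other. On that rule 31 of the 34 were measured, of 15947 symbols in all, and each of the 31 had a single such probe set. The measured genes were 16 sterol enzymes, 4 regulators, all 7 fatty acid enzymes and all 4 transport and efflux genes. IDI1, FDPS and INSIG2 were not analysed as single genes here.

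Cholesterol is built from acetyl-CoA through mevalonate, squalene and lanosterol, and the long-chain fatty acids are built from the same acetyl-CoA and then elongated and desaturated. SREBP precursors are held in the endoplasmic reticulum with the escort protein SCAP and the retention proteins INSIG1 and INSIG2. When membrane sterol is low, SCAP carries the precursor to the Golgi, where it is cut, and the released fragment switches on the sterol genes (chiefly SREBF2) and the fatty acid genes (chiefly SREBF1). The efflux pumps ABCA1 and ABCG1 answer to a different sensor, LXR, which is active when oxysterols accumulate.

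Expression was measured on Affymetrix canine gene arrays in a pair of canine B-cell lymphoma lines from lymph node, to find genes that respond when PRMT5 is inhibited. PRMT5 is the methyltransferase behind most symmetric dimethylation of arginine in proteins. There were 5 arrays per line: 3 of control and 2 of treated CLBL-1, collected on day 2, and 2 of control and 3 of treated 17-71, collected on day 4. Treatment was with a selective PRMT5 inhibitor at 100 nM, named PR220 in the labels and C220 in the study, and control cells were cultured without it. All cells grew in serum-containing medium. Each line is a single established line, and wherever the lines are compared, the line and its day cannot be told apart. Separate cultures for the replicates are not stated in the labels (the study calls its replicates biological), so the p-values reflect spread among these samples alone, possibly technical.

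Values were RMA log2 expression, in which a difference of 1 is a doubling, for 32391 probe sets on each of 10 arrays. Pearson's r across probe sets was 0.99 to 0.993 within groups, 0.988 to 0.991 between treated and control arrays of a line and 0.934 to 0.939 between the lines. Of the 31 measured genes, 26 lay above the array median on all arrays and 21 above the upper quartile. Only ABCG1 lay below the median on all arrays. The B cell label was checked against markers. In CLBL-1, 8 of 8 measured B cell markers lay above the upper quartile on all arrays, but so did the T cell genes CD3D and CD3G. In 17-71 only CD22 of the 8 B cell markers did. MS4A1, the gene of CD20, read 2.02 to 2.53 there against 11.86 to 12.04 in CLBL-1. The arrays labelled 17-71 thus do not bear out a B cell label by these markers, and which line they came from was not tested in another way. The lines are named throughout as the arrays are labelled, and each value given for a line rests on that label. At an unadjusted p below 0.05, 4444 probe sets differed with treatment in the arrays labelled CLBL-1 and 2916 in those labelled 17-71. PRMT5 itself differed between treated and control cells by -0.27 in CLBL-1 (adjusted p = 0.292, limma) and by -0.03 in 17-71 (adjusted p = 0.95), which does not check the labels, since the compound acts on the enzyme and not on its transcript.

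In CLBL-1, whether the inhibitor moved the pathway was asked with the 2 treated and 3 control arrays. In treated cells 29 of 31 genes had a negative change, with a median of -0.13, against 15794 of 32391 probe sets and a median of 0.01 over the whole array. Many of these changes were slight: as rounded here, 11 of the 31 genes differed by less than 0.1 in either direction. None of the 31 passed an adjusted p below 0.05 (limma, Benjamini-Hochberg over all probe sets), which 0.133% of all probe sets did. At the study's threshold, an unadjusted p below 0.05, 8 of 31 genes (25.8%) were lower, where 6.89% of all probe sets were, and 0 were higher, where 6.83% were. All treated arrays lay below all control arrays for 16 of 31 genes (51.6%), against 15.5% of all probe sets, and above them for 0, against 16.9%. The genes were chosen with earlier results of these data known. These shares, and those given below, therefore describe the list and do not test it.

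**Figure D1:**
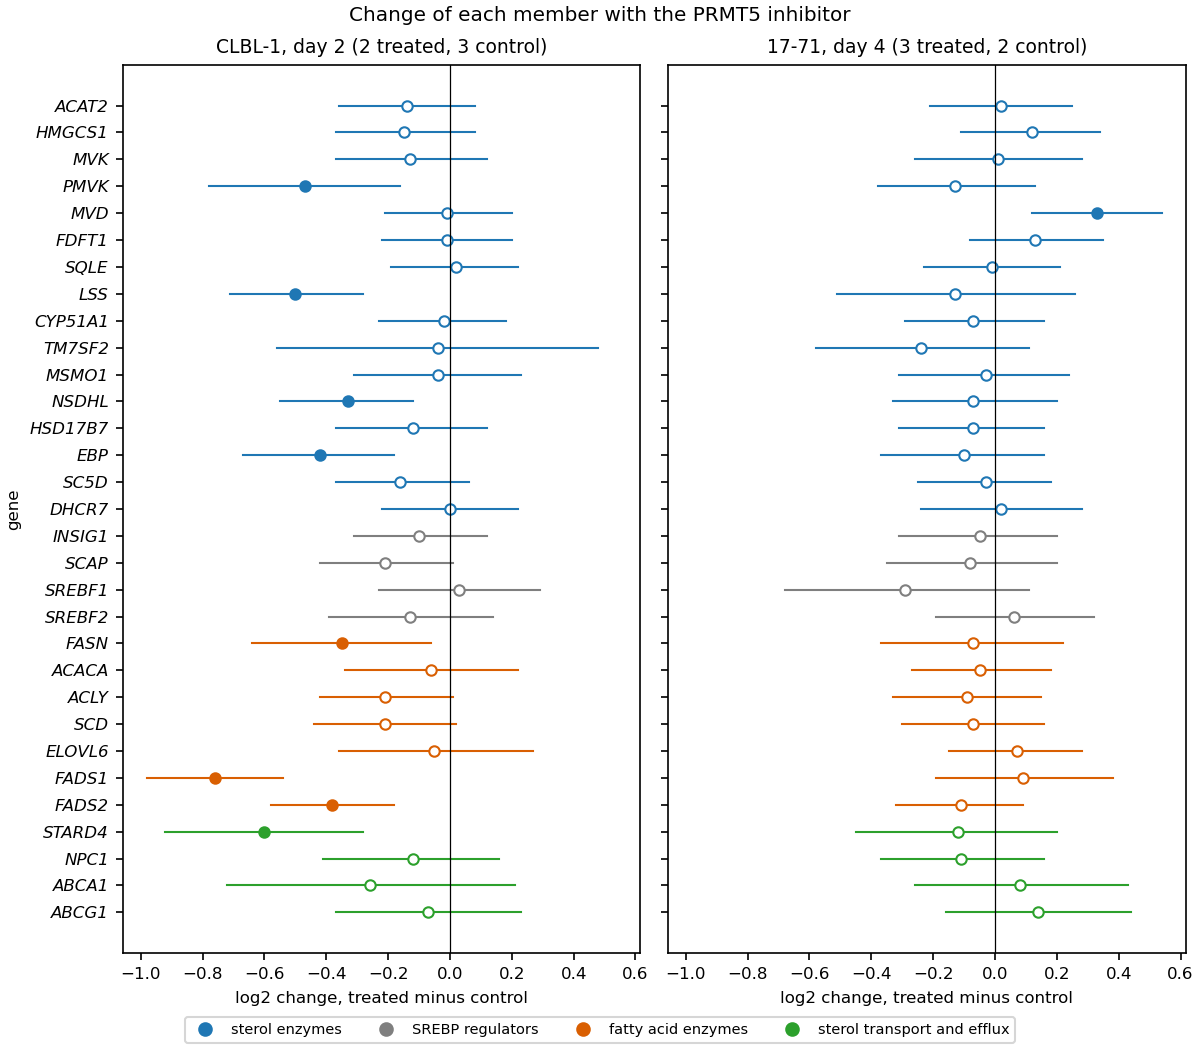
Treated minus control difference in log2 expression for each of the 31 measured genes, in CLBL-1 and in 17-71, with 95% intervals from limma. In CLBL-1 29 of 31 genes lie below 0, with FADS1 at -0.76 and STARD4 at -0.60 farthest out, while in 17-71 20 of 31 do and MVD stands highest at 0.33.

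Of the 4 gene groups, the fatty acid enzymes had the lowest median change in CLBL-1, close to -0.19 for transport and efflux. By single genes FADS1 stood lowest, followed by STARD4 at -0.60 and LSS at -0.50, which are not fatty acid enzymes. All 7 had a negative change, with a median of -0.21 and a range of -0.76 to -0.05, and 5 of the 7 had no overlap between treated and control arrays. FADS1, a desaturase that makes arachidonate and other polyunsaturated fatty acids, read 11.19, 11.19 and 11.08 in control cells and 10.39 and 10.40 in treated cells. The treated pair sat together, well below the controls. The difference was -0.76 (SE 0.0865, 1.69-fold, adjusted p = 0.0615), the smallest adjusted p in the list.

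FADS2, the desaturase that acts upstream of FADS1 in the same route, read 10.30, 10.28 and 10.29 in control cells and 9.94 and 9.88 in treated cells, again without overlap (-0.38, SE 0.0809, adjusted p = 0.161). FASN, the synthase that builds palmitate, read 8.06, 7.85 and 8.05 against 7.73 and 7.53, and both treated arrays were below every control (-0.35, SE 0.117, adjusted p = 0.292). ACLY, which cuts citrate to give cytosolic acetyl-CoA, and SCD, which makes monounsaturated fatty acids, each differed by -0.21 without overlap. ACACA, the carboxylase that commits acetyl-CoA to fatty acids, differed by -0.06 and the elongase ELOVL6 by -0.05, with overlapping arrays in both.

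The sterol enzymes were less even. Of 16 measured, 15 had a negative change, with a median of -0.13, and 8 had treated arrays all below the controls. LSS, which closes squalene epoxide into lanosterol, read 7.64, 7.57 and 7.54 in control cells and 7.05 and 7.12 in treated cells (-0.50, SE 0.0868, adjusted p = 0.118). PMVK, a kinase of the mevalonate segment, read 5.41, 5.12 and 5.31 against 4.90 and 4.73 (-0.47, SE 0.123, adjusted p = 0.211). Both genes kept the groups apart, although the controls of PMVK were the more scattered.

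EBP, which shifts a double bond in the sterol ring late in the pathway, read 8.41, 8.23 and 8.36 in control cells and 7.95 and 7.86 in treated cells (-0.42, SE 0.0974, adjusted p = 0.176). NSDHL, which helps remove the methyl groups of lanosterol, read 9.23, 9.26 and 9.35 against 8.95 and 8.93 (-0.33, SE 0.0875, adjusted p = 0.21). In both genes every treated array was below every control array. The 4 enzymes past the unadjusted threshold thus came from the mevalonate segment (PMVK), the ring closure (LSS) and the late steps (NSDHL and EBP).

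Another 7 sterol enzymes differed by less than 0.05 in either direction. Among them were SQLE, the squalene epoxidase, at 0.02 (95% interval -0.19 to 0.22), MVD, the mevalonate diphosphate decarboxylase, at -0.01 (-0.21 to 0.20), and FDFT1, the squalene synthase, at -0.01 (-0.22 to 0.20). CYP51A1, which demethylates lanosterol, stood at -0.02 (-0.23 to 0.18). HMGCS1, the synthase that feeds the mevalonate route, lay between these and the 4 lower genes at -0.15 (-0.37 to 0.08). The treated arrays also differed from each other: the median deviation of the sterol enzymes from their control means was -0.181 on the array of treated replicate 1 and -0.062 on that of replicate 2. For the fatty acid enzymes the same medians were -0.202 and -0.235.

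STARD4, a soluble carrier that moves cholesterol between membranes, read 8.26, 8.39 and 8.39 in control cells and 7.58 and 7.91 in treated cells. Both treated arrays were lower, and they lay farther from each other than the controls did (-0.60, SE 0.128, 1.52-fold, adjusted p = 0.16). NPC1, which exports cholesterol from lysosomes, differed by -0.12, and the efflux pumps ABCA1 and ABCG1 by -0.26 (-0.72 to 0.21) and -0.07 (-0.37 to 0.23), all 3 with overlapping arrays.

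The 4 measured regulators had a median change of -0.11, and 2 of them had no overlap between treated and control arrays. SREBF1 read 5.59, 5.44 and 5.50 in control cells and 5.64 and 5.45 in treated cells, a difference of 0.03 (95% interval -0.23 to 0.29), and SREBF2 read 9.32, 9.13 and 9.22 against 9.18 and 9.01, a difference of -0.13 (-0.39 to 0.14). Neither gene separated the groups. SCAP read 6.87, 6.92 and 6.98 against 6.69 and 6.74 (-0.21, adjusted p = 0.38), and INSIG1, itself an SREBP target, read 9.34, 9.42 and 9.34 against 9.23 and 9.31 (-0.10, adjusted p = 0.685). For both the treated arrays lay below the controls, and SCAP differed by as much as ACLY and SCD did. These are transcript levels, and cleavage of SREBP was not measured by the arrays.

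The number of genes called in CLBL-1 changed with the settings of the test. Under quantile and under cyclic loess normalisation 0 of 31 genes were called, as in the main fit. With any 1 of the control arrays left out, 0 of 32391 probe sets were called, and so none of these genes. Without probe sets below the median of the array 5 genes were called lower (FADS1, FADS2, LSS, EBP and STARD4), beside 6.18% of the probe sets left, and with an intensity trend and robust variances the same 5 and NSDHL were, beside 4.04% of all probe sets.

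**Figure D2:**
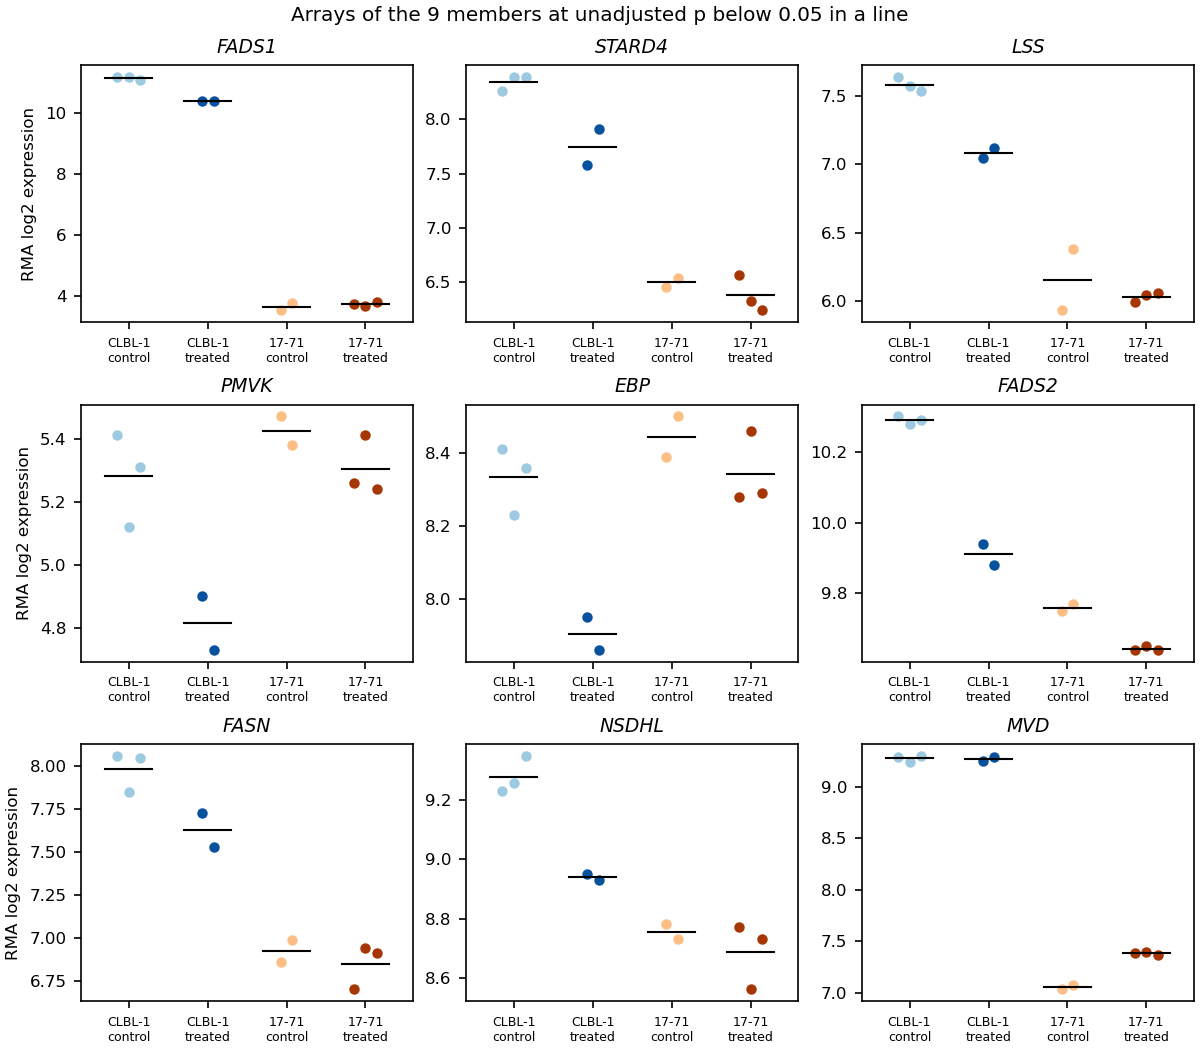
RMA log2 expression on each array for the members past an unadjusted p of 0.05 in either line, with 1 point per array, a bar at the group mean and groups by line and treatment. The CLBL-1 treated arrays lie below the CLBL-1 controls for FADS1, LSS, STARD4 and the other genes lower there, whereas in 17-71 MVD is the gene whose treated arrays stand clear above the controls.

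In 17-71, collected at day 4, the list was nearly level. Of 31 genes 20 had a negative change, with a median of -0.05, beside 15528 of 32391 probe sets and a median of 0.01. No gene passed the adjusted threshold by limma, which 0% of all probe sets did, and the smallest adjusted p was 0.488. At an unadjusted p below 0.05, 0 of 31 genes were lower, where 4.93% of all probe sets were, and 1 was higher, where 4.08% were. Treated arrays lay all below the controls for 3 genes, against 13.8% of all probe sets, and all above for 4, against 14.1%.

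The single gene past the unadjusted threshold was MVD, the last enzyme of the mevalonate segment. It read 7.03 and 7.07 in control cells and 7.38, 7.39 and 7.37 in treated cells. The replicates were tight and the groups did not overlap (0.33, SE 0.0829, 1.26-fold, adjusted p = 0.488). Its direction was the reverse of the lower readings in CLBL-1, where MVD stood level.

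HMGCS1 read 9.32 and 9.35 in control cells against 9.39, 9.44 and 9.52, and FDFT1 9.30 and 9.33 against 9.44, 9.48 and 9.44. Both were above their controls by 0.12 and 0.13, and neither passed the threshold (adjusted p = 0.73 and 0.669). ELOVL6 was the fourth gene with its treated arrays above, by 0.07. The 3 genes with treated arrays below the controls were TM7SF2, a sterol reductase, at -0.24, SREBF1 at -0.29 and FADS2 at -0.11. The sterol enzymes as a group had a median of -0.03 and the fatty acid enzymes of -0.07.

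Among the regulators, SREBF1 read 5.05 and 5.15 in control cells and 5.03, 4.83 and 4.58 in treated cells, so that the treated arrays were lower but scattered (95% interval -0.68 to 0.11). SREBF2 read 8.54 and 8.58 against 8.56, 8.57 and 8.74, a difference of 0.06 (-0.19 to 0.32). SCAP read 6.84 and 7.07 against 6.92, 6.87 and 6.85, a difference of -0.08, and INSIG1 read 7.95 and 8.12 against 7.93, 8.06 and 7.96, a difference of -0.05. The groups overlapped for all of these but SREBF1.

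FADS1 differed by 0.09 in 17-71 (95% interval -0.19 to 0.38), at a level of 3.53 to 3.80, close to the array medians of 3.71 to 3.79. LSS read 5.93 and 6.38 in control cells and 5.99, 6.04 and 6.06 in treated cells, and STARD4 6.46 and 6.54 against 6.57, 6.33 and 6.24. The groups overlapped for both, and the differences were -0.13 and -0.12. EBP read 8.39 and 8.50 against 8.28, 8.46 and 8.29, and PMVK 5.47 and 5.38 against 5.26, 5.41 and 5.24, with differences of -0.10 and -0.13 and overlapping arrays. NSDHL and FASN each differed by -0.07, also with overlap.

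Over both lines, the mean of the 2 treated minus control differences (the common effect) was tested in a fit of the 4 group means. Only FADS2 passed, and it fell by 0.25 (SE 0.0478, adjusted p = 0.048, limma), beside 1.59% of all probe sets called and 1.27% called lower. Its treated arrays lay below the controls in both lines, at 9.64, 9.65 and 9.64 against 9.75 and 9.77 in 17-71. Of all probe sets 15.5% did so in CLBL-1 and 13.8% in 17-71. The same arrays gave the call, so the separation is no further evidence for it. The call was lost when any array was left out, with adjusted p from 0.0927 to 0.151 over 10 fits, while the difference stayed between -0.26 and -0.23.

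FADS1 lay just outside the threshold at -0.33 (SE 0.0654, adjusted p = 0.0502), a mean of -0.76 in CLBL-1 and 0.09 in 17-71. STARD4 stood at -0.36 (adjusted p = 0.109), LSS at -0.31 (0.138), PMVK at -0.30 (0.119) and EBP at -0.26 (0.109). MVD stood at 0.16 (adjusted p = 0.17). Of the 31 genes, 29 were negative in CLBL-1 and 20 in 17-71, and 18 were negative in both. That is the fewest those counts allow, so it does not show that the lines moved together.

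The responses of the lines were then set against each other, as the CLBL-1 difference minus the 17-71 difference. The result was negative for 27 of 31 genes, with a median of -0.14 beside -0.01 over all probe sets, and 0 genes passed the adjusted threshold, beside 0.0309% of all probe sets. At an unadjusted p below 0.05, 6 genes were lower, where 5.36% of all probe sets were, and 0 were higher, where 5.92% were. The widest gap was that of FADS1, at -0.85 (95% interval -1.15 to -0.56, adjusted p = 0.0899). STARD4 stood at -0.48 (adjusted p = 0.379) and LSS at -0.37 (adjusted p = 0.478). MVD, level in CLBL-1 and above its controls in 17-71, stood at -0.34 (adjusted p = 0.273). In 17-71 FADS1 lay at the array medians with and without the inhibitor, where a lower level may not be measurable, so whether the responses were unequal cannot be read from this gap.

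The untreated lines differed far more than treated from control cells. Untreated CLBL-1 had higher levels than untreated 17-71 for 22 of 31 genes (71%) and lower levels for 4 (12.9%; limma, adjusted p below 0.05), so that 26 of 31 were called, beside 31.5% of all probe sets. Much of that gap reflects dim probe sets: without probe sets below the median of the array, 25 of 29 genes were called, beside 59.4% of the probe sets left. By direction 16.8% of all probe sets were called higher in CLBL-1 and 14.7% lower. The median difference was 0.77 over the list and 0.01 over all probe sets. Beyond 1 log2 unit, 11 genes were higher in CLBL-1 and 4 lower.

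**Figure D3:**
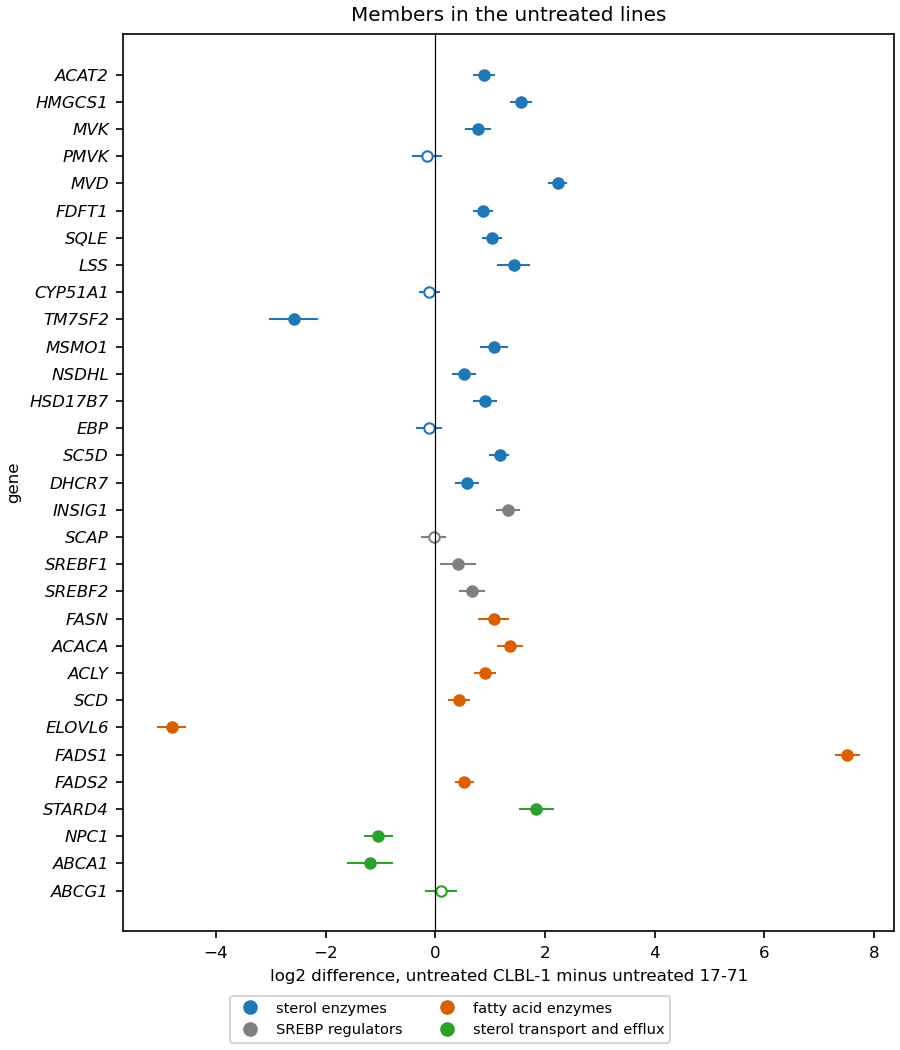
Log2 difference between the untreated lines, CLBL-1 minus 17-71, for each of the 31 measured genes, with 95% intervals and colours for the 4 gene groups. Filled points passed an adjusted p of 0.05; 12 of the 16 sterol enzymes are filled to the right of 0, while FADS1 at 7.51 and ELOVL6 at -4.81 stand far from the rest.

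Of the 16 sterol enzymes, 12 were higher in CLBL-1 and 1 lower, with a median of 0.88. MVD read 9.29, 9.24 and 9.30 in CLBL-1 against 7.03 and 7.07 in 17-71, a difference of 2.23 (4.68-fold, adjusted p = 5.41e-08). HMGCS1 was 1.56 higher (adjusted p = 1.06e-06), LSS 1.43, the sterol desaturase SC5D 1.17, MSMO1, which begins removal of the lanosterol methyls, 1.07 and SQLE 1.04. The groups were wholly apart in each. PMVK, EBP and CYP51A1 were not called, at -0.15, -0.12 and -0.11.

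TM7SF2, a reductase of the sterol ring double bond left by CYP51A1, ran the other way. It read 3.18, 3.76 and 3.44 in CLBL-1 and 5.86 and 6.23 in 17-71, a difference of -2.58 (adjusted p = 9.52e-06). Its level in CLBL-1 was near or below the array medians, where a probe set may not be above background, and no background calls were used here. With readings below the array median counted as that median, the mean was at least 4.9-fold lower in CLBL-1. Such a figure bounds the measured means only and leaves out sampling error.

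Of the 7 fatty acid enzymes, 6 were higher in CLBL-1 and 1 lower. FADS1 read 11.19, 11.19 and 11.08 in CLBL-1 against 3.53 and 3.76 in 17-71. The measured difference was 7.51 (adjusted p = 2.07e-09). Since the readings in 17-71 lay at the array medians, this amounts to at least 169-fold, counted as for TM7SF2. FADS2, its partner in the same route, read about 10 in both lines and differed by 0.53 (1.44-fold, adjusted p = 0.000309).

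ELOVL6, which extends palmitate to stearate, was the reverse case. It read 1.98, 1.82 and 1.91 in CLBL-1, far below the array medians, and 6.69 and 6.73 in 17-71, a measured difference of -4.81 (adjusted p = 8.74e-09). Counted in the same way, ELOVL6 was at least 7.81-fold lower in CLBL-1. ACACA was 1.36 higher in CLBL-1, FASN 1.06, ACLY 0.90 and SCD 0.43. Neither FADS1 nor ELOVL6 changed its side with treatment: treated CLBL-1 read 10.39 and 10.40 for FADS1 and 1.70 and 2.01 for ELOVL6.

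**Figure D4:**
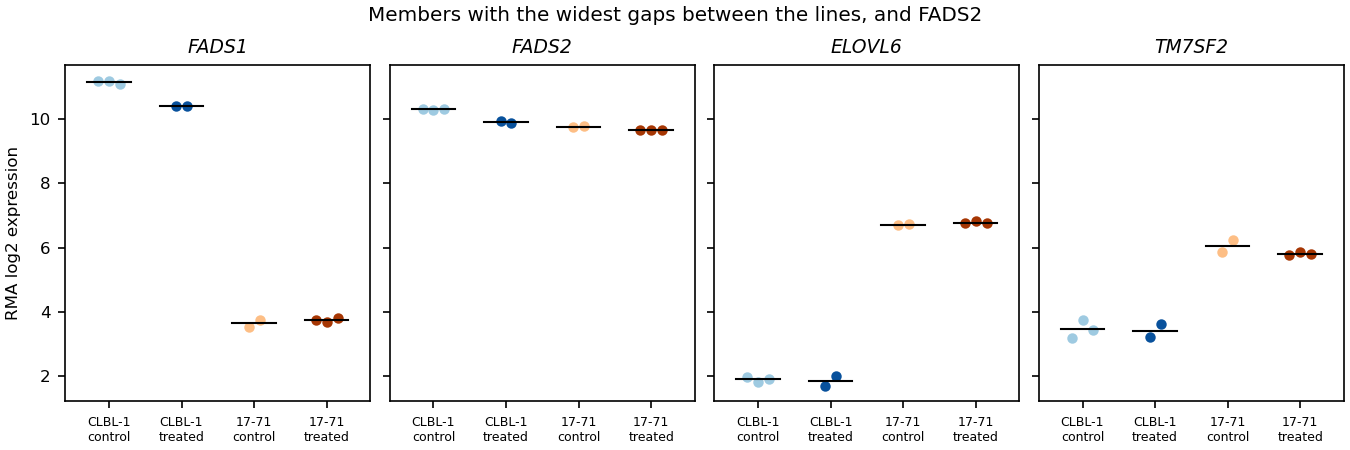
RMA log2 expression on each array for FADS1, FADS2, ELOVL6 and TM7SF2, by line and treatment, with 1 point per array and a bar at the group mean. FADS1 lies above 10 in CLBL-1 and below 4 in 17-71, ELOVL6 and TM7SF2 are higher in 17-71, and FADS2 is near 10 in all groups.

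The regulators and carriers split. INSIG1 was 1.33 higher in CLBL-1 (adjusted p = 4.29e-06), SREBF2 0.67 higher (adjusted p = 0.000741) and SREBF1 0.41 higher (adjusted p = 0.0475), whereas SCAP differed by -0.03 (95% interval -0.24 to 0.17, adjusted p = 0.834). STARD4 was 1.84 higher in CLBL-1. NPC1 stood at -1.04 and ABCA1 at -1.20 (adjusted p = 0.000679), at 2.95, 2.58 and 2.84 against 3.94 and 4.05. Those levels lay about or below the array medians, so the ABCA1 difference has little room above background (at least 1.19-fold, counted as above). ABCG1 lay near 2 on the log2 scale in both lines, below every array median, and was not called.

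The control arrays of the lines also differed in B cell markers, whose mean level per array over all arrays was 9.01 to 9.23 in CLBL-1 and 4.06 to 4.41 in 17-71. Of 7 T and NK cell markers 2 lay above the upper quartile in CLBL-1, CD3D at 6.71 to 7.35 and CD3G at 8.79 to 9.05. In 17-71 1 did, CD2. Of 8 myeloid markers 1 did in CLBL-1, LYZ, and 2 in 17-71, LYZ and CD68. The part of cell identity, and of the day of collection, in the differences between the untreated lines was not tested. Over the alternatives run, every difference named here beyond 1 log2 unit kept its call.

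Beyond the 34 genes, 61 of 68 further genes of the same pathways were measured. In CLBL-1 42 of the 61 had a negative change, and at an unadjusted p below 0.05 12 were lower and 3 higher, beside 6.89% and 6.83% of all probe sets. In 17-71 40 were negative, 8 lower and 1 higher, beside 4.93% and 4.08%. None passed the adjusted threshold within a line by limma. For the common effect 6 were called, all lower, beside 1.27% of all probe sets called lower. Each had treated arrays below the controls in both lines, as 15.5% of all probe sets had in CLBL-1 and 13.8% in 17-71. The same arrays gave the calls, so this separation is no further evidence for them.

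ERG28, known in yeast as a scaffold that holds sterol enzymes together, read 10.12, 10.01 and 10.09 in control and 9.06 and 9.20 in treated CLBL-1, and 10.27 and 10.31 against 10.07, 10.01 and 10.10 in 17-71. Over both lines it fell by 0.59 (SE 0.0571, adjusted p = 0.00398, limma), the mean of -0.94 in CLBL-1 and -0.23 in 17-71. ACSS2, which makes acetyl-CoA from acetate and is an SREBP target, read 8.28, 8.25 and 8.30 against 7.50 and 7.47 in CLBL-1 and 8.74 and 8.65 against 8.42, 8.53 and 8.56 in 17-71. Its fall over both lines was 0.49 (SE 0.0549, adjusted p = 0.00628, limma), the mean of -0.79 in CLBL-1 and -0.19 in 17-71.

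ABCA5, a lysosomal transporter linked to cholesterol handling, read 6.20, 6.44 and 6.39 against 5.43 and 5.47 in CLBL-1 and 8.06 and 7.94 against 7.60, 7.60 and 7.64 in 17-71. It fell by 0.64 (SE 0.0651, adjusted p = 0.0049), and its own difference in 17-71 was -0.39 (unadjusted p = 0.00678 by limma, adjusted p = 0.475). ERG28, ACSS2 and ABCA5 kept the call in 10 of 10 fits that each left out an array. None of the 61 genes passed for the difference between the lines' responses. The smallest adjusted p there was 0.0928 (limma), that of ERG28 at -0.72.

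**Figure D5:**
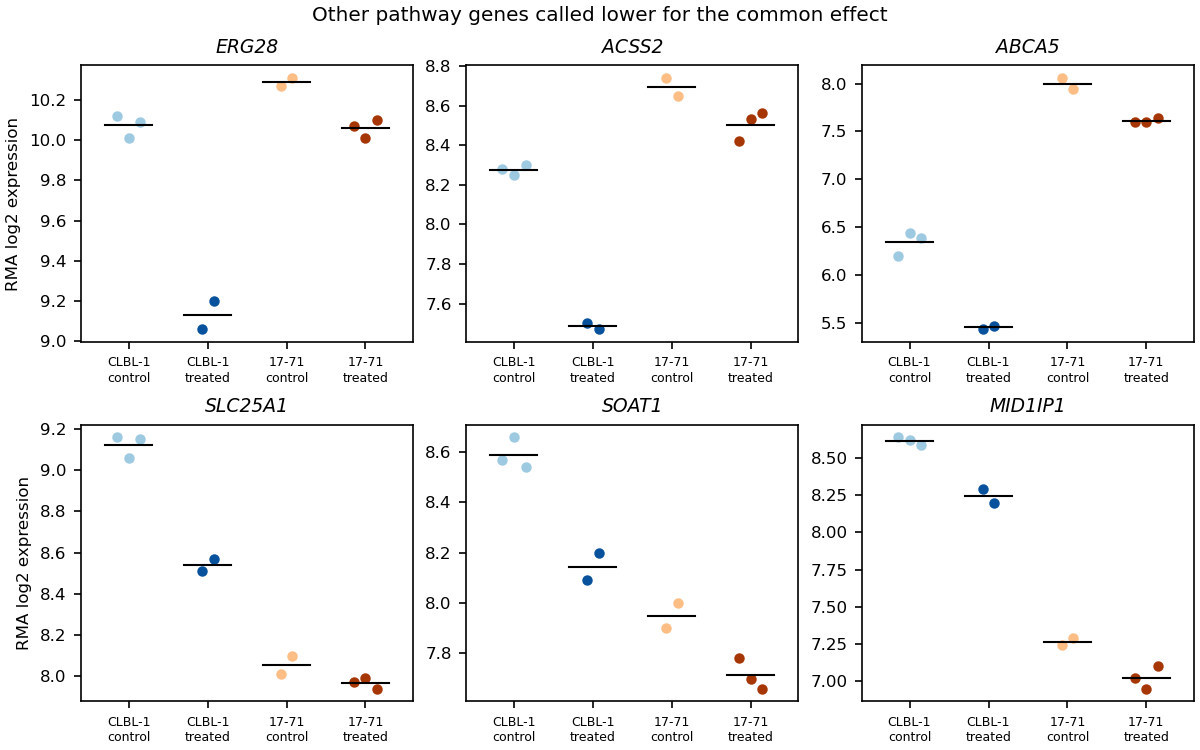
RMA log2 expression on each array for the 6 other pathway genes called lower over both lines, with 1 point per array and a bar at the group mean; the axes start above 0 and differ between panels. In every panel the treated arrays of a line lie below its controls, as for ERG28 at 9.06 and 9.20 against 10.01 to 10.12 in CLBL-1.

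The other 3 calls were those of SLC25A1, the mitochondrial citrate carrier that supplies ACLY, at -0.34 (adjusted p = 0.0243), SOAT1, which esterifies cholesterol for storage, at -0.34 (adjusted p = 0.0319), and MID1IP1, which promotes assembly of acetyl-CoA carboxylase, at -0.31 (adjusted p = 0.0355). Each lost its call in all 10 such fits. SLC25A1 read 9.16, 9.06 and 9.15 in control and 8.51 and 8.57 in treated CLBL-1, where its difference was -0.58. In 17-71 the difference of SLC25A1 was -0.09. In CLBL-1 alone, the genes at an unadjusted p below 0.01 also included GGPS1, the geranylgeranyl diphosphate synthase, at -0.63 (adjusted p = 0.15), and NUDT1, which clears oxidised nucleotides and makes no sterol, at -0.40 (adjusted p = 0.175). UFD1, an adaptor in the extraction of proteins from the endoplasmic reticulum, stood at 0.38 (adjusted p = 0.168), the only such gene that read higher.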

How the data were processed

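The authors deposited RMA log2 expression values per probe set (background-corrected, normalised between arrays and summarised), and Affymetrix Expression Console and limma are further tools in the submitters' processing notes. Whether both lines were normalised in 1 run is not given in the sources used here. Since RMA equalises the arrays' distributions, a shift in total RNA per cell would not show. Arrays have no read depth, and their number limits the precision. Groups followed the labels, and 0 sample columns were left unused. Linear models were fitted in R 4.3.3 with limma 3.58.1, and two-sided moderated tests were adjusted by Benjamini-Hochberg over 32391 probe sets, per line (residual df 3) or over the 4 group means (residual df 6). The fits were tested on simulated data. No 2 arrays held identical values. The members and lists were chosen with earlier results of these data known. Values on every array are given for members at an unadjusted p below 0.05 in a line or called over both lines, and for the regulators. Members called between the untreated lines with a difference above 1 are named, as are other pathway genes at an unadjusted p below 0.01 in a line. Remaining genes are given by range, count or example. Alternatives were quantile and cyclic loess normalisation, the mean of probe sets, a filter on dim probe sets, trended and robust variances, a joint fit, a replicate block, other make-up of the sterol group, and leaving out each array. No sequence was printed, since none was given for these genes.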

Additional observations from a re-analysis of the deposited data

How the results depend on the processing

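No value recomputed under the alternatives changed direction. These were the counts and medians of the list and 33 values of single genes, and the other values named were not recomputed. Those of the single genes kept their side of the threshold 409 times, gained a call 20 times and lost it 47 times. For the common effect, 1 member was called, 2 (FADS1 and FADS2) under quantile normalisation, cyclic loess normalisation and the mean of probe sets, 7 with dim probe sets left out (9.16% of the probe sets left were called), 6 with trended, robust variances (4.33% of all) and 0 with the replicate block (0%). In CLBL-1, 0 members were called, 5 with dim probe sets left out (6.18%), 6 with trended variances (4.04%) and 2 in the joint fit (1.87%). Trended variances also gave 14 members lower at an unadjusted p in CLBL-1, and 1 lower and 2 higher in 17-71. For the difference of responses they called 2 members, FADS1 and FADS2 (0.889%), against 1, FADS1, with the filter (1.65%). FADS1 lay at the array medians in 17-71 and passed the filter through its level in CLBL-1. Its calls therefore do not show that the responses were unequal. The filter left 29 members, and it and the trended variances raised calls over all probe sets in CLBL-1 from 43 to 1001 and 1310. The median change of the fatty acid enzymes was -0.049 in 17-71 under quantile normalisation and -0.237 in CLBL-1 under cyclic loess. The cause was not tested in any of these. Over fits that each left out an array, the common effect had 0 to 1 members called (LSS without 17-71 control replicate 1), 17-71 had 0 to 2 lower and 0 to 1 higher at an unadjusted p, and MVD was the member lost. The medians ranged from -0.086 to -0.008 for the fatty acid enzymes in 17-71, from -0.237 to -0.202 for those in CLBL-1, and from -0.181 to -0.062 for the sterol enzymes in CLBL-1. Same-numbered replicates did not deviate together (r from -0.026 to 0.0079), which does not show whether their cultures were related. With the replicate number as a block, 0 members were called in either line, over both or for the difference, and 0 were higher in 17-71 at an unadjusted p. The block leaves less residual df than the main fits, so calls are harder to reach with it. The 6 other pathway genes called over both lines lost their calls in that fit, ERG28 at adjusted p = 0.307, ACSS2 at 0.331, ABCA5 at 0.3 and the rest at 0.361 to 0.365, and no probe set was called. No such fit was possible between the untreated lines because the numbers lie within lines. The number of arrays, 2 or 3 per group, limits all of these values.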

Other observations

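FDPS, which makes farnesyl diphosphate, lay only on 2 probe sets that also carry RUSC1, so their values cannot be given to either gene. Treated arrays lay below the controls in both lines on both of them, with differences of -0.32 and -0.13 in CLBL-1 and of -0.19 and -0.26 in 17-71, and for the common effect the adjusted p was 0.064 and 0.108 (limma).

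The genes that lie beside FADS1 in the RefSeq gene order of the dog were looked up after its values were seen. FADS3, a further member of the desaturase family, read 7.0 ± 0.081 (SD, n = 3) in untreated CLBL-1 and 4.58 ± 0.16 (SD, n = 2) in untreated 17-71, a difference of 2.42 (adjusted p = 4.81e-06, limma). TMEM258 was 1.14 higher in CLBL-1, and DAGLA differed by -0.08. Beside ELOVL6, ENPEP and EGF differed by 0.03 and 0.17, and both read near 2 in both lines, whereas FAM241A was 1.70 higher in CLBL-1. The 4 genes beside TM7SF2 (FAU, MRPL49, VPS51 and ZFPL1) differed by -0.25 to 0.44.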
